A study of Ovis aries with 115 samples.

Results

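The cervical transcriptome of Belclare ewes in the follicular phase was compared between ewes whose oestrous cycle had been synchronised (10 ewes) and ewes in a natural cycle (10 ewes). These 20 libraries were chosen by their labels for breed, phase and cycle, out of 115 libraries of 4 sheep breeds. Belclare is an Irish breed that the study grades as medium in fertility, by pregnancy rate after cervical insemination with frozen-thawed semen. The synchronised ewes had received a progestagen sponge and equine chorionic gonadotrophin at its removal, whereas the natural group had cycled without synchronisation according to its labels. According to the methods, ewes were multiparous, and tissue was snap-frozen after death from the mid-region of the cervix, away from the folds. Those methods describe the synchronised ewes. How oestrus was timed in the natural ewes, and the dates of collection and sequencing, are not given in the sources used here, so whether the groups differ in date is not known here. The labels give no further treatment and no genotype. Each library is one ewe by its label, with no pooling stated.

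The ovine cervix is a target tissue of oestradiol and progesterone. In the follicular phase, oestradiol rises while progesterone is low, the epithelium secretes mucus rich in mucins and water, and the stroma softens, which together govern the passage of spermatozoa. Synchronisation with progestagen and gonadotrophin brings oestrus to a fixed time for artificial insemination, and it is known as a treatment that can alter mucus and sperm transport. The comparison therefore asks whether cervical gene expression at the follicular phase differs between the synchronised and the natural cycle.

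No gene passed the test between the cycles. Of 14180 genes tested with edgeR's quasi-likelihood test, 0 were differentially expressed genes (DEGs), defined by a Benjamini-Hochberg adjusted p under 0.05 and a fold change above 1.5 (0% of genes tested). At an unadjusted p under 0.05 there were 263 genes (1.85%), of which 128 had a higher (0.903%) and 135 a lower estimate (0.952%) in synchronised ewes. DESeq2 also called 0 genes, with 393 at an unadjusted p under 0.05 by its Wald test and 344 by its likelihood ratio test. In 0 of the 14180 genes did all synchronised ewes lie above all natural ewes, and in 0 did they lie below (0%).

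These results limit the size of a difference as well as failing to call one. The 95% interval of the fold change lay wholly within 1.5-fold in either direction for 10135 genes (71.5%) and within 2-fold for 12855 genes (90.7%). The median standard error of the log2 fold change was 0.146 and the median size of the estimate 0.0753. For the remaining genes the interval reached beyond 2-fold in at least 1 direction. The synchronised libraries held 16628290 to 22109169 counts in total and the natural ones 13850253 to 19621536. The mean total was higher by 1656900 counts in synchronised ewes (two-sided permutation test with 100000 resamples, p = 0.0639).

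The ewes did not separate by cycle. Between the cycles lay 3.66% of the variance of log2 CPM, the count scaled to library size, over the 14180 genes (one-sided permutation test with 100000 resamples, p = 0.803). The first principal component held 24.65% of the variance, on which synchronised ewes ran from -48.4 to 73.1 and natural ewes from -44.5 to 29.6. Synchronised ewe 2 had the highest score on the first component and, at 59.2, on the second.

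**Figure D1:**
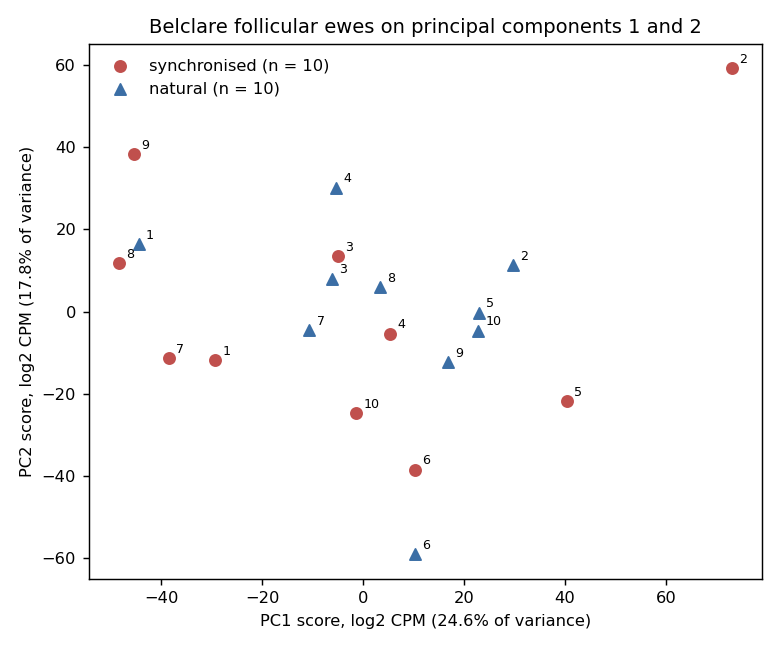
Scores of the 20 Belclare ewes on the first and second principal component of log2 CPM, with the share of variance on each axis, circles for synchronised and triangles for natural ewes, and replicate numbers beside the points. The cycles are intermingled, and synchronised ewe 2 lies at the upper right, at 73.1 and 59.2.

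Markers of the labelled tissue were present in every ewe. The summed level of 7 epithelial markers, among them CDH1, CLDN3 and MUC16, was 902 to 4290 CPM in synchronised and 1750 to 4960 CPM in natural ewes. That of 5 fibroblast markers was 1330 to 3540 and 1230 to 2850 CPM. Of 6 smooth muscle markers only 3 had an identifier with a name, ACTG2, DES and ACTC1, and these varied most between ewes. Their sum had a median of 202 CPM and a range of 76.5 to 13900 CPM in synchronised ewes, against a median of 568 CPM and a range of 70.9 to 6620 CPM in natural ewes. Synchronised ewe 2 held the highest smooth muscle sum and the lowest epithelial sum. Left out, it raised the number of genes at an unadjusted p under 0.05 to 499 and left 0 DEGs. In whole tissue, fewer cells of a type and less RNA per cell cannot be told apart.

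Genes of the response to steroid hormones gave no DEG. Of the 20 tested genes of steroid hormone response and metabolism, 0 were DEGs and 0 reached an unadjusted p under 0.05 in either direction. Their median log2 fold change was 0.05, beside 0.0040 over all genes, and 11 of 20 had a positive estimate, beside 51.7% of all genes. GREB1, a growth regulator induced by oestradiol through its receptor, was the most abundant of them in CPM. It stood at 304 to 1110 CPM in synchronised ewes (median 722) and at 142 to 1030 CPM in natural ewes (median 714). The ranges overlapped almost wholly, with natural ewe 1 alone at the lower end. The log2 fold change of GREB1 was 0.15 ± 0.29 (SE), with an interval from 0.733-fold to 1.68-fold. FKBP5, a co-chaperone of steroid receptors that progesterone and glucocorticoids induce, was at 74.1 to 234 CPM in synchronised (median 154) and 96.1 to 250 CPM in natural ewes (median 153). Its interval ran from 0.717-fold to 1.27-fold, inside 1.5-fold in both directions.

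PADI2, an arginine deiminase of oestrogen target tissues, was at 21.1 to 45.5 CPM in synchronised ewes (median 32.8) and at 5.66 to 66.1 CPM in natural ewes (median 15.7). The natural ewes spanned the wider range, with 6 of them below every synchronised ewe and 2 above. The log2 fold change of PADI2 was 0.41 ± 0.34 (SE; unadjusted p = 0.239 by edgeR). With an ewe left out it lay between 0.29 and 0.72. The first was without natural ewe 1 (unadjusted p = 0.355 by edgeR), the second without natural ewe 7 (unadjusted p = 0.0264), and none passed the adjustment. The study called PADI2 higher in synchronised Belclare than in Suffolk ewes, so it was partly selected on synchronised Belclare values. OXTR, the oxytocin receptor, which oestradiol raises in the reproductive tract, spanned 1.61 to 33.4 CPM in synchronised and 0.118 to 76.9 CPM in natural ewes. With a log2 fold change of -0.78 ± 0.80 (SE), its estimate was smaller than its error. ESR2, which encodes oestrogen receptor beta, had medians of 6.84 and 3.90 CPM and an interval from 0.414-fold to 1.70-fold. Its estimate was lower in synchronised ewes although their median was higher, so no direction is given. NRIP1, a corepressor of nuclear receptors, was more narrowly bounded, from 0.830-fold to 1.34-fold.

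**Figure D2:**
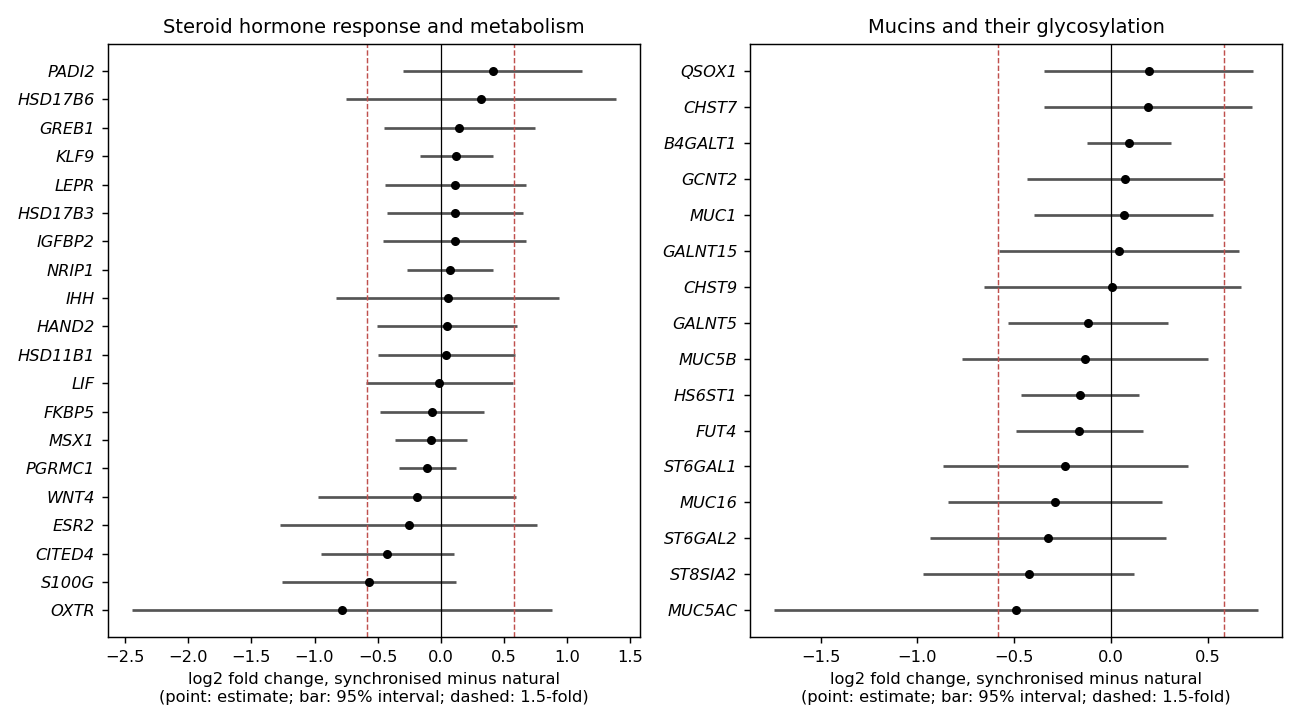
Log2 fold changes of the 20 genes of steroid hormone response and the 16 genes of mucins and their glycosylation, synchronised minus natural, with points for estimates, bars for 95% intervals and dashed lines at 1.5-fold. Every bar crosses 0, and the widest are those of OXTR and MUC5AC.

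Mucins and the enzymes that glycosylate them gave no DEG either. Of 16 genes tested, 0 were DEGs and 0 had an unadjusted p under 0.05. A positive estimate was found for 7 of the 16, beside 51.7% of all genes, and the list's median log2 fold change was -0.13. MUC5B, the main gel-forming mucin of cervical mucus, was at 63.6 to 329 CPM in synchronised ewes (median 119) and 91.8 to 278 CPM in natural ewes (median 154). The synchronised ewes held both the lowest and the highest value, and the interval ran from 0.586-fold to 1.41-fold. MUC5AC, the other gel-forming mucin of the list, was at 2.08 to 62.6 CPM (median 8.78) and at 3.03 to 78.7 CPM (median 12.6). Its log2 fold change was -0.49 ± 0.60 (SE), which bounds little. The membrane mucins were more abundant in CPM, with medians of 1230 and 1120 CPM for MUC1 and of 1550 and 1870 CPM for MUC16. MUC1 had an interval from 0.760-fold to 1.44-fold.

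All tested list members come from the 1306 tested identifiers with a name, of which 37 had an unadjusted p under 0.05 by edgeR. Other proteins of the mucosal secretion showed, beside 1.85% of all genes, 1 of 23 tested identifiers at an unadjusted p under 0.05. This was 1 of the pair of identifiers named SAA1, an acute phase protein, at 3.56 to 28.5 CPM in synchronised and 2.53 to 184 CPM in natural ewes (log2 fold change -1.47). The other SAA1 identifier had a log2 fold change of -0.06, and read pairs that matched more than 1 place, such as near-identical copies, were not counted. SCGB2A1, a secretoglobin of mucosal glands, was at 0.484 to 34.8 CPM (median 6.69) in synchronised and 3.38 to 41.8 CPM (median 14.1) in natural ewes. Its log2 fold change was -0.99 ± 0.60 (SE; unadjusted p = 0.115 by edgeR).

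Among 25 tested genes of ion and water transport, which sets the hydration of mucus, AQP9 alone reached an unadjusted p under 0.05. Of all genes, 1.85% did. AQP9, an aquaglyceroporin also found in neutrophils, was at 0.224 to 2.10 CPM in synchronised ewes (median 1.02) and at 0.295 to 24.3 CPM in natural ewes (median 1.58). Of the natural ewes, 4 lay above every synchronised ewe, and the next value after 24.3 was 3.76 CPM. The log2 fold change was -1.82 ± 0.64 (SE; unadjusted p = 0.0102), and without natural ewe 6 it was -0.56 (unadjusted p = 0.181). Summed neutrophil markers, AQP9 with CD177 and CXCR2, ran from 6.04 to 128 CPM in synchronised and from 5.37 to 186 CPM in natural ewes, and their part in this value was not tested. AQP5, a water channel of secretory epithelium, had medians of 290 and 295 CPM, and CFTR, the chloride channel, 161 and 146 CPM.

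Of 28 genes of epithelial junctions and identity, 0 had an unadjusted p under 0.05 and 18 had an interval within 1.5-fold, beside 71.5% of all genes. CDH1, the adhesion molecule of epithelial junctions, had medians of 572 and 561 CPM and an interval from 0.694-fold to 1.2-fold. The 10 tested genes of keratinisation were less well bounded, with 0 intervals within 1.5-fold, 0 at an unadjusted p under 0.05 and log2 fold changes from -1.52 (A2ML1) to 0.73 (KRT1). Of 12 ciliated cell genes, 10 had a negative estimate, while 51.7% of all genes had a positive one. The ciliated cell genes had a median log2 fold change of -0.09 and 0 at an unadjusted p under 0.05.

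In the stroma, 27 of 36 identifiers of fibroblasts and extracellular matrix had a positive estimate, beside 51.7% of all genes. The median log2 fold change of the list was 0.12. Its members were measured in the same ewes and are not independent, and the count of signs was not tested. The summed fibroblast markers had medians of 2080 CPM in synchronised and 2040 CPM in natural ewes. Their highest values were those of synchronised ewes 5 (3540 CPM) and 2 (3120 CPM). Only ADAMTS12, a secreted metalloproteinase, had an unadjusted p under 0.05 (p = 0.0236 by edgeR), beside 1.85% of all genes. Its log2 fold change was 0.79 ± 0.32 (SE). It was at 4.05 to 29.8 CPM in synchronised ewes (median 9.39) and 2.34 to 11.1 CPM in natural ewes (median 7.32). MMP2, a gelatinase, had medians of 571 and 512 CPM, and MMP14, its membrane-bound activator, 749 and 685 CPM. The list holds 3 identifiers named THBS2, so its members are not all separate genes. The smooth muscle genes ACTG2 and DES gave positive estimates that turned negative when synchronised ewe 2 was left out. ACTG2 had a median of 81.3 CPM (43.8 to 5760) in synchronised and 220 CPM (27.2 to 2750) in natural ewes, with a log2 fold change of 0.30 ± 0.98 (SE). Without synchronised ewe 2 it was -2.10 (unadjusted p = 0.00964 by edgeR). That of DES went from 0.21 to -2.24 (unadjusted p = 0.0117 by edgeR), and neither passed the adjustment.

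**Figure D3:**
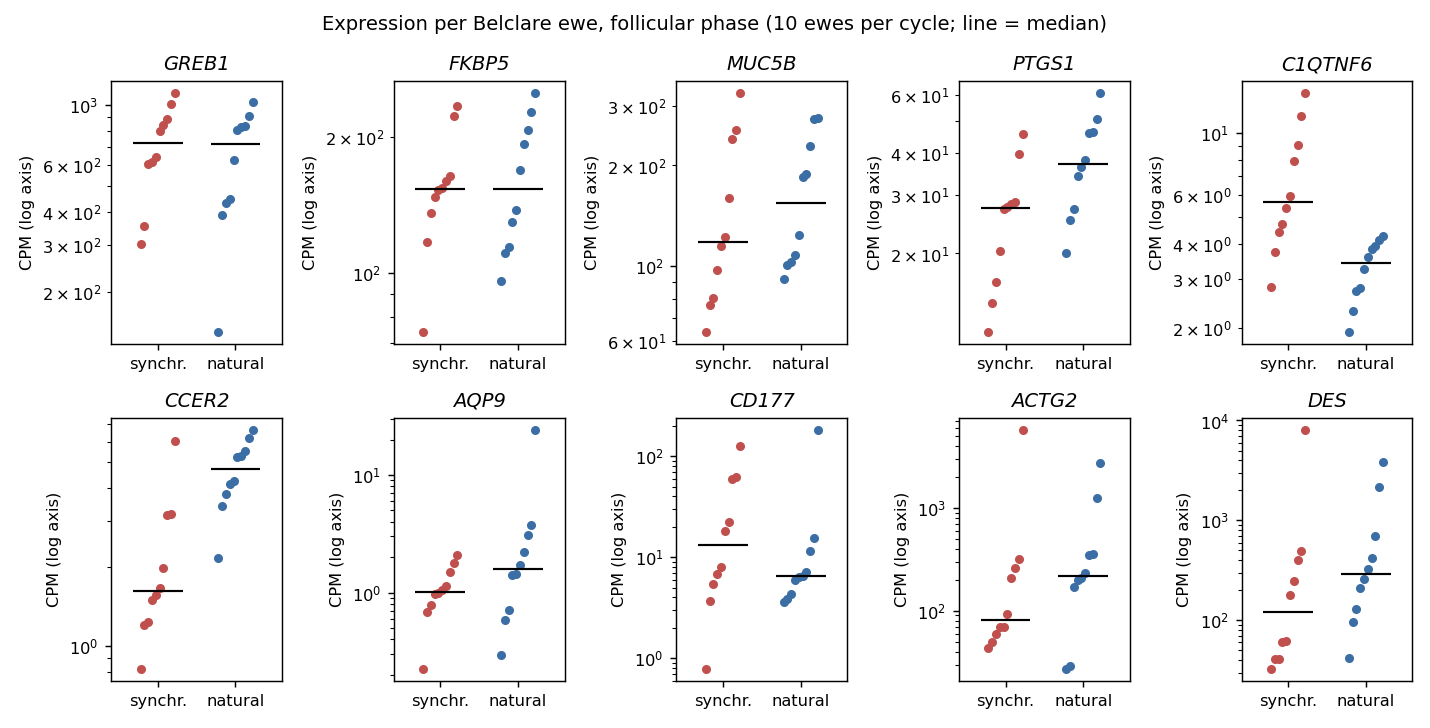
CPM of 10 genes in each of the 20 Belclare ewes on log axes, synchronised on the left and natural on the right of each panel, with a line at the median. The cycles overlap in every panel, and 1 ewe stands apart for AQP9 (24.3 CPM), ACTG2 (5760 CPM) and DES (8090 CPM). Natural ewe 1 also stands apart for CD177 (183 CPM) and, at the low end, GREB1 (142 CPM).

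Immune genes gave no DEG. Of 23 tested neutrophil and myeloid identifiers, 0 were DEGs, and AQP9 and SAA1 were those at an unadjusted p under 0.05, beside 1.85% of all genes. CD177, a neutrophil surface protein, was at 0.785 to 125 CPM in synchronised (median 13.2) and 3.64 to 183 CPM in natural ewes (median 6.47), with a log2 fold change of 0.32 ± 0.87 (SE). Leaving out natural ewe 1 moved it to 2.12 and leaving out synchronised ewe 7 to -0.26, so its sign rested on single ewes. Of 27 lymphoid identifiers only CTSW, a protease of cytotoxic lymphocytes, had an unadjusted p under 0.05 (log2 fold change -0.42), beside 1.85% of all genes. Of 28 interferon-induced identifiers 0 did, with 17 intervals within 1.5-fold.

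Signalling, lysosomal, lipid and mitochondrial genes held further members at an unadjusted p under 0.05, none of which passed the adjustment. These were 2 of 24 signalling, 1 of 29 lysosomal, 2 of 19 lipid and 1 of 2 mitochondrial identifiers. Beside them stood 37 of the 1306 tested identifiers with a name and 1.85% of all genes. LRP4 and AXIN2, which restrain Wnt signalling, both had lower estimates in synchronised ewes. LRP4 was at 36.7 to 63.1 CPM in synchronised (median 50.4) and 48.3 to 86.7 CPM in natural ewes (median 66.0), and 6 natural ewes lay above every synchronised ewe. Its log2 fold change was -0.36 ± 0.12 (SE; unadjusted p = 0.00574), and that of AXIN2 was -0.35 (unadjusted p = 0.0353). Of 29 lysosomal identifiers 25 had a positive estimate, beside 51.7% of all genes, with a median log2 fold change of 0.09 and 3 identifiers sharing the name MAN2B2. CTSZ, a lysosomal protease, alone had an unadjusted p under 0.05, at a log2 fold change of 0.30 ± 0.12 (SE). PTGS1, the constitutive cyclooxygenase that begins prostaglandin synthesis, was at 11.6 to 45.7 CPM in synchronised (median 27.4) and 20.1 to 60.7 CPM in natural ewes (median 37.2). Of the natural ewes, 4 lay above every synchronised ewe, and the log2 fold change of PTGS1 was -0.57 ± 0.24 (SE; unadjusted p = 0.0254). The mitochondrial gene that the study names COX-1, cytochrome c oxidase subunit 1, had medians of 2440 and 2350 CPM and a log2 fold change of 0.03 ± 0.09 (SE). MT-ND6, a subunit of respiratory complex I and the other mitochondrial gene with a name, was at 9.25 to 20.6 CPM in synchronised (median 14.8) and 5.69 to 16.9 CPM in natural ewes (median 11.3). Its log2 fold change was 0.43 ± 0.18 (SE; unadjusted p = 0.0233).

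**Figure D4:**
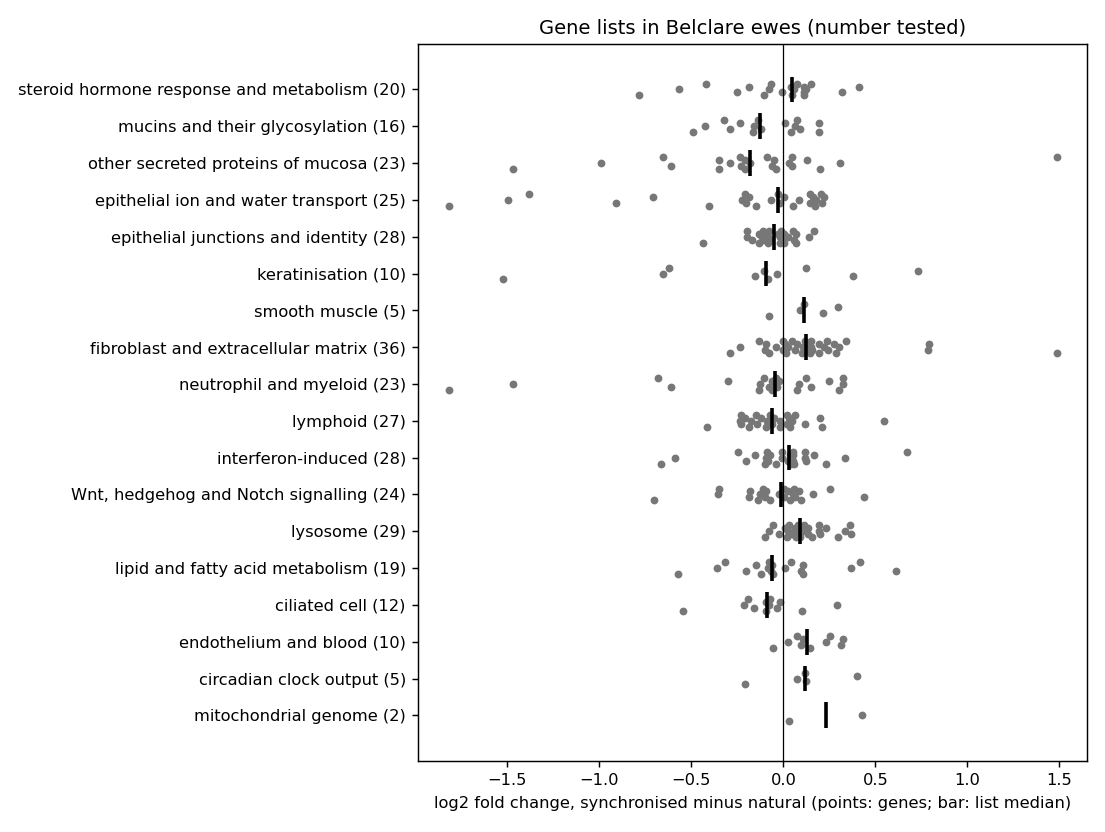
Log2 fold change, synchronised minus natural, of each tested member of 18 gene lists, with a bar at each list's median. The list medians lie between -0.18 and 0.23, and 0 members were DEGs.

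The genes of smallest p, none of which passed the adjustment, were led by C1QTNF6, a secreted protein of the C1q and tumour necrosis factor family. C1QTNF6 was at 2.80 to 13.9 CPM in synchronised (median 5.65) and 1.93 to 4.26 CPM in natural ewes (median 3.42), and 8 synchronised ewes lay above every natural ewe. Its log2 fold change was 1.08 ± 0.26 (SE; unadjusted p = 0.000426), between 0.91 and 1.18 when each ewe was left out. MLKL, the effector of necroptosis, was at 5.73 to 13.4 CPM (median 6.97) against 2.90 to 6.57 CPM (median 4.71), with 6 synchronised ewes above every natural ewe (log2 fold change 0.57 ± 0.17, SE; unadjusted p = 0.00328). COLQ, the collagen tail of acetylcholinesterase, had medians of 10.3 and 4.94 CPM (log2 fold change 0.82 ± 0.31, SE). BTD, the enzyme that recycles biotin, had medians of 104 and 82.4 CPM. TGM7, a transglutaminase, had a log2 fold change of 2.02 ± 0.76 (SE), which rested on synchronised ewe 9 at 88.1 CPM: without it the value was 0.69 (unadjusted p = 0.223).

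Lower in synchronised ewes by estimate, and again not past the adjustment, was CCER2, a coiled-coil protein. The study called CCER2 and AQP9 lower in synchronised Belclare than in Suffolk ewes, so these genes were partly selected on synchronised Belclare values. CCER2 was at 0.821 to 6.01 CPM in synchronised (median 1.62) and 2.16 to 6.66 CPM in natural ewes (median 4.74). Of the synchronised ewes, 7 lay below every natural ewe, while synchronised ewe 5 was among the high values. The log2 fold change of CCER2 was -1.06 ± 0.30 (SE; unadjusted p = 0.00224), and -1.37 without synchronised ewe 5. KHDRBS3, an RNA-binding protein, had medians of 2.43 and 3.74 CPM (log2 fold change -0.90 ± 0.32, SE). ANKRD10 and ARID3A, the latter a DNA-binding factor, differed by less, at -0.17 ± 0.06 and -0.37 ± 0.15 (SE) on the log2 scale. Among identifiers without a name, ENSOARG00000016699 had medians of 115 and 76.0 CPM (log2 fold change 0.59 ± 0.15, SE) and ENSOARG00000019599 of 4.96 and 3.48 CPM (0.79 ± 0.20, SE). ENSOARG00000006771 had medians of 2.44 and 4.37 CPM (-0.65 ± 0.18, SE). ENSOARG00000018032 had medians of 1.13 and 1.51 CPM, but reached 304, 52.4 and 22.8 CPM in 3 natural ewes, against at most 3.94 CPM in synchronised ewes. Its log2 fold change was -4.70 ± 1.16 (SE), and -2.61 without natural ewe 6, the highest of them.

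The levels were also set beside those of the synchronised luteal phase of the same breed (10 ewes), without a test. GREB1 was at 13.8 to 41.3 CPM in luteal ewes, below all 20 follicular ewes. AQP9 was at 17.5 to 148 CPM in luteal ewes, above all follicular ewes but natural ewe 6, which lay within their range. C1QTNF6 was at 0.187 to 1.18 CPM in luteal ewes, below every follicular ewe of either cycle. PTGS1 had a luteal median of 78.4 CPM, and its luteal range, 21.7 to 151 CPM, overlapped both follicular groups. For PADI2, ACTG2, ARID3A and KLHL24 the luteal median lay between the medians of the 2 follicular groups, at 16.3 CPM for PADI2 and 181 CPM for ACTG2.

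Whether the cycle difference of Belclare differed from that of other breeds was tested as an interaction, with the same filter and threshold of adjusted p but no limit of fold change. Against Suffolk, the other Irish breed, 0 of 14730 genes passed by edgeR (0%), with 549 at an unadjusted p under 0.05 (3.73%) and 1 passing by DESeq2's Wald test. Against Norwegian White Sheep (NWS), 1 of 14833 genes passed (0.00674%), ENSOARG00000013745, named after its values were seen. It had an adjusted p of 0.0481 by edgeR and was lost when any of 13 of the 20 Belclare ewes was left out. Against Fur, a Norwegian breed with 8 synchronised and 10 natural ewes, 291 of 14835 genes passed (1.96%), 101 with a more positive (0.681%) and 190 with a more negative difference (1.28%) in Belclare. Fur and NWS ewes came from Norway, and in these interactions the country cannot be told apart from the breed.

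In these genes the larger cycle differences were those of Fur. Of the 291 genes, which the interaction itself selected, 289 had an unadjusted p under 0.05 for the cycle in Fur (99.3%, beside 29.4% of all genes tested) and 44 in Belclare (15.1%, beside 2.5%). Their median absolute log2 fold change was 0.15 in Belclare and 0.58 in Fur, beside 0.078 and 0.20 over all genes tested. HBP1, a transcriptional repressor, was the named gene of smallest p in this interaction. It was at 68.4 to 132 CPM in synchronised and 71.9 to 129 CPM in natural Belclare ewes. Fur ewes were at 50.4 to 80.2 and 101 to 148 CPM. The difference of HBP1 between the breeds' log2 fold changes was 1.07 ± 0.19 (SE; adjusted p = 0.00497 by edgeR). For KLHL24, a ubiquitin ligase adaptor, it was 1.17 ± 0.22, and for KLF11, a Krüppel-like transcription factor, 1.76 ± 0.36 (SE). BACH2, a transcription factor of lymphocytes, and CREBRF, a regulator of CREB3 proteins, had 1.5 ± 0.32 and 1.18 ± 0.26 (SE). In Belclare alone, the log2 fold changes of these 5 genes lay between 0.08 and 0.40 and none had an unadjusted p under 0.05.

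A few genes of smallest p in Belclare were also among the 291. CCER2 had a log2 fold change of -1.06 ± 0.23 in Belclare and 0.29 ± 0.24 in Fur (SE), and COLQ 0.82 ± 0.34 and -1.20 ± 0.37. MLKL had 0.57 ± 0.18 and -0.41 ± 0.19 (SE). AQP9 had -1.83 ± 0.84 in Belclare and 3.55 ± 0.89 in Fur (SE), where synchronised ewes reached 112 CPM. The number of genes changed with single ewes, from 28 without Fur synchronised ewe 8 to 989 without Belclare natural ewe 6. It was lower by more than 1.5 times in 21 of the 38 fits that each left out 1 ewe, and higher by more than 1.5 times in 8. Of the 291 genes, 26 passed in all 38 fits, among them HBP1, KLHL24, KLF11 and BACH2. AQP9 passed in 36 of the 38 fits, CCER2 in 25, COLQ in 23 and MLKL in 15.

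**Figure D5:**
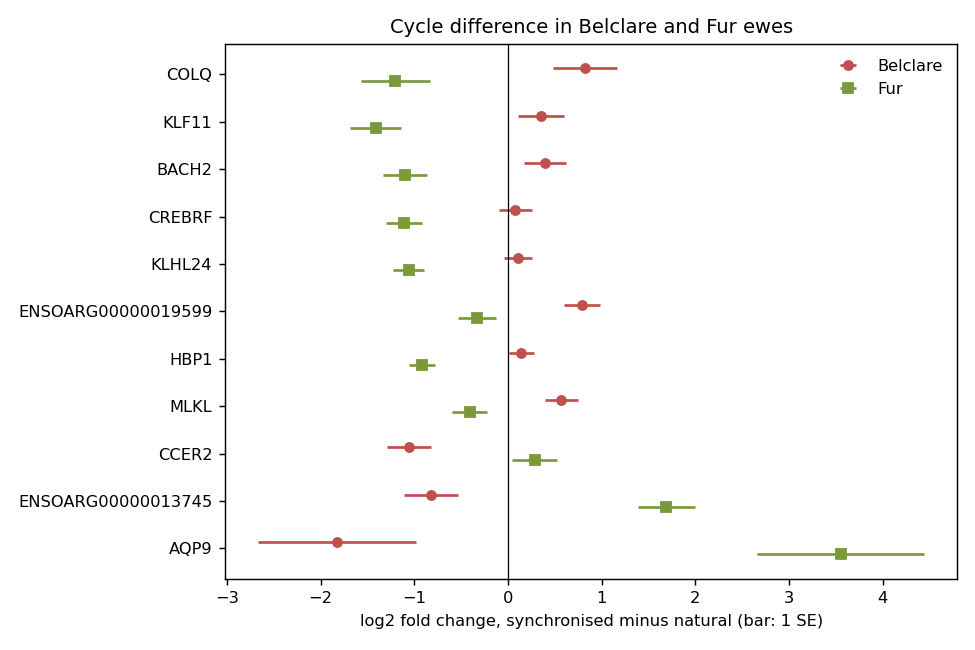
Log2 fold changes between synchronised and natural follicular ewes in Belclare (circles) and Fur (squares), with bars of 1 SE, for the genes with an adjusted p under 0.05 in the interaction whose differences the text gives, not for all 33 with a name. Estimates lie on opposite sides of 0 for the genes drawn, and HBP1, KLHL24 and CREBRF lie within 0.15 of 0 in Belclare.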

How the data were processed

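Cervical poly(A) RNA of 114 assigned libraries was used, 1 library being left unassigned because its labels conflict. The authors trimmed reads, aligned them to the ovine genome Oar_v3.1 with STAR 2.6.1b, and used featureCounts to count the uniquely mapped pairs per Ensembl gene (Subread 1.6.3; versions from the submitters' processing notes). They deposited raw read counts for 27054 identifiers, without normalization. Pairs that matched several places are therefore lost from near-identical genes. The kit was stranded, and the strand setting of the counting is not given in the sources used here. Names, for 1352 identifiers, come from the study's supplementary tables, and no coordinates or sequences are given. Besides mapping information, those tables list genes that the study called between Suffolk and another breed at the synchronised follicular phase. Synchronised Belclare ewes were among the ewes compared there. The 1306 tested identifiers with a name, and all list members, are therefore not an unselected sample of genes. Of the 1306, 37 had an unadjusted p under 0.05 by edgeR, the closer background for the lists.

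From these counts, genes with at least 1 CPM in at least 10 of the libraries fitted were kept. TMM normalization and the quasi-likelihood test of edgeR 4.0.16 (R 4.3.3) were applied to the 20 Belclare libraries, and to both follicular groups of 2 breeds for interactions. The study's methods name DESeq2's likelihood ratio test, run here as an alternative (DESeq2 1.42.0). A positive log2 fold change means higher in synchronised ewes. The SE is the estimate divided by the square root of F, and 95% intervals use the total degrees of freedom. Levels are CPM on TMM-normalized sizes of the 114 libraries; principal components and variance shares use log2 CPM with a prior count of 2. No library repeated another (lowest chi-square per degree of freedom 36.66 over 190 pairs). That libraries are separate ewes rests on their labels, so p-values measure the spread between these samples, which may be partly technical. The test of the Belclare cycles and that of the interaction with Fur were checked on simulated counts. The interactions with Suffolk and NWS were not. Each gene was drawn independently, so ewes that differ in many genes at once were not covered.

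Named genes were the 6 named genes of smallest p per direction, 2 unnamed identifiers per direction, up to 5 named interaction genes per breed, and 14 genes for orientation. Members of 18 gene lists and 9 marker lists were described by counts and medians. Members of a list share the same ewes, so their signs are not independent, and counts of signs were not tested. Members and lists were chosen with earlier results of these data known. Alternatives were other size factors, filters, tests, fits and a replicate block, each ewe left out, and, added after seeing the data, a covariate of ACTG2 and DES and 4 surrogate variables (sva 3.50.0).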

Additional observations from a re-analysis of the deposited data

Results flagged for a closer look

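In 90 groups of 10 ewes examined, 10 had an ewe far from the others by Dixon's criterion, where chance alone gives about 1 in 20. Synchronised ewe 2 stood apart for ACTG2 at 5760 CPM, DES at 8090 CPM, the summed smooth muscle markers at 13900 CPM and ENSOARG00000007414 at 75.9 CPM. Natural ewe 1 stood apart for CD177 at 183 CPM, the summed neutrophil markers at 186 CPM, the summed keratinised epithelium markers at 254 CPM and, at the low end, GREB1 at 142 CPM. Synchronised ewe 8 was low for CTSZ at 73.9 CPM, and synchronised ewe 10 was high for ENSOARG00000018032 at 3.94 CPM. These groups share ewes and genes and are not independent.

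The cycle difference differed between Belclare and Fur for 291 genes and between Belclare and NWS for 1 gene, by the interaction term of edgeR's quasi-likelihood test. On the log2 scale, the difference of Belclare minus Fur was 1.07 for HBP1, 1.17 for KLHL24, 1.76 for KLF11, 1.5 for BACH2, 1.18 for CREBRF, 0.98 for MLKL, 2.02 for COLQ, 1.12 for ENSOARG00000019599, -1.35 for CCER2, -5.38 for AQP9 and -2.51 for ENSOARG00000013745. The last also had -2.51 against NWS. In that gene Belclare ewes were at 15 to 74.0 CPM in synchronised and 19.5 to 133 CPM in natural cycles, and NWS ewes at 41.4 to 292 and 19.4 to 85.7 CPM.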

How the results depend on the processing

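The count of 0 DEGs held under DESeq2 size factors, upper quartile factors, both other filters, both DESeq2 tests, no fold change threshold, glmTreat, the fit of all 3 Belclare groups, both added covariate fits and each of 20 ewes left out (range 0 to 0). It became 1, in the lower direction, with all 12 groups in one fit, the gene being ENSOARG00000018032 (adjusted p = 0.00997). Of the 14180 genes, 263 (1.85%) had an unadjusted p under 0.05 by edgeR in the main fit. This number was 212 to 499 with an ewe left out and 1289 with surrogate variables, where the lowest adjusted p was 0.211. The labels do not say that equal replicate numbers pair ewes. Same-numbered deviations correlated from -0.208 to 0.615 over 10 pairs, and 2 of 10 ewes matched their own number best. With so few pairs this cannot tell whether equal numbers share a batch. With the replicate block there were 0 DEGs for Belclare, 0 interaction genes with Suffolk, 989 with Fur and 0 with NWS.

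Interaction genes with Suffolk numbered 1 with all 12 groups in one fit and 1 by the DESeq2 Wald test (0 to 0 with an ewe left out). Those with Fur numbered 449 with at least 10 counts in every ewe, 49 with all 12 groups in one fit, 902 by the DESeq2 Wald test, and 28 to 989 with an ewe left out. Those with NWS numbered 6 by the DESeq2 Wald test and 0 to 2 with an ewe left out. The cause was not tested. The share of variance between cycles was 3.36% to 5.48% with an ewe left out.

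Of 36 tested named genes, the sign of the log2 fold change turned for OXTR (0.0086 with the replicate block, 0.19 with surrogate variables), CD177 (-0.29 with the covariate), CXCR2 (-0.0125 with surrogate variables), ACTG2 (-0.65 with the block, -1.16 by the DESeq2 Wald test, -0.31 with surrogate variables), DES (-1.03, -1.36 and -0.69 in the same order, -0.19 with the covariate) and ENSOARG00000007414 (-0.14 with the block, -0.045 with surrogate variables). With an ewe left out it ran from -0.15 to 0.021 for FKBP5, -1.08 to 0.0108 for MUC5AC, -0.26 to 2.12 for CD177, -0.17 to 0.35 for CXCR2, -2.10 to 1.12 for ACTG2, -2.24 to 0.97 for DES, -0.0085 to 0.076 for COX-1 and -0.43 to 0.22 for ENSOARG00000007414. None of these was called in any of those fits.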

Other observations

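The spread between ewes of one cycle was larger than the difference between cycles for most genes. The median SD of log2 CPM within a cycle was 0.330, and the difference of the group means exceeded the gene's own SD in 187 of 14180 genes. Among named genes the widest spread, chosen after the values were seen, lay in DES (SD 2.22), PRSS16 (2.21), a serine protease, and ACTG2 (2.07), followed by OXTR (2.07) and FXYD4 (2.04). ATP12A, a proton pump, ran from 2.92 to 23.6 CPM in synchronised and from 0.365 to 231 CPM in natural ewes. A2M, a protease inhibitor, ran from 4.26 to 206 and from 2.77 to 327 CPM, and PI16, a marker of fibroblasts, from 0.420 to 84.7 and from 0.292 to 17.0 CPM. Plasma cell markers, the identifiers of IRF4 and IGHG3, summed to 391 to 5730 CPM in synchronised and 323 to 6060 CPM in natural ewes. The summed lymphocyte markers ran from 8.35 to 19.0 and from 8.79 to 21.7 CPM, the ciliated cell markers from 54.0 to 196 and from 82.0 to 247 CPM, and the endothelial markers from 782 to 1210 and from 644 to 1290 CPM.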
